A study of Mus musculus with 46 samples.

Results

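The renin-angiotensin system (RAS) genes described here are 9 genes chosen by name from the 53465 genes in the expression table: the substrate gene Agt, the renin gene Ren1, Akr1b7, the converting enzyme gene Ace, the receptor genes Agtr1a and Agtr1b, the peptidase genes Mme and Enpep, and Atp6ap2. All 9 were listed once. They were followed in proximal tubular (PT) cells (LTL+), macrophages (F4/80+), endothelial cells (CD31+) and stromal cells (PDGFRβ+) sorted from the kidneys of male C57BL/6 mice of 8–12 weeks after sham surgery, unilateral ureteric obstruction (UUO) or reversal of the obstruction (rUUO). The labels name no genetic change, and within a population the groups differ by surgery. Obstructed kidneys were taken at day 2 or 7 by the methods, but the labels do not say which day a UUO sample had, and reversed kidneys were taken 14 days after the reversal. The values used came from 3 sham, 4 UUO and 3 rUUO samples of PT cells, 4, 4 and 3 of macrophages, 4, 3 and 4 of endothelial cells, and 4 of each surgery for stromal cells.

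Renin, an aspartyl protease released by juxtaglomerular cells of the afferent arteriole, cuts angiotensinogen to angiotensin I, and angiotensin-converting enzyme trims that peptide to angiotensin II, which constricts vessels and promotes sodium retention through the type 1 receptor. Rodents have a pair of type 1 receptor genes, Agtr1a and Agtr1b. Aminopeptidase A (Enpep) and neprilysin (Mme) break angiotensin peptides down further, whereas Atp6ap2, the (pro)renin receptor, is also an accessory protein of the vacuolar proton pump. Akr1b7, an aldo-keto reductase, is known as a companion gene of renin in juxtaglomerular cells.

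Ren1 and Akr1b7 were among the 5 members that fell in stromal cells after UUO, and Agt is the substrate gene that rose in PT cells. Their promoters were picked after these results and are shown first. Each runs from 250 bases before to 50 bases after the start site on the gene's own strand, as given by RefSeq on GRCm38.p6, and capitals mark TATAAA or its reverse complement TTTATA. The windows are chr1:133350424-133350723 on the plus strand for Ren1, chr6:34412112-34412411 on the plus strand for Akr1b7 and chr8:124569657-124569956 on the minus strand for Agt.
Ren1: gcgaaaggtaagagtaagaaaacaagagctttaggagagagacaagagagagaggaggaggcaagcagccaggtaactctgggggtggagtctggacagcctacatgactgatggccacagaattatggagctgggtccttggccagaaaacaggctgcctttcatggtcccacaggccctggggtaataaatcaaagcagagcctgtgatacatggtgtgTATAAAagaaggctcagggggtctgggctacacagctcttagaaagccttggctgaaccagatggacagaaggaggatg
Akr1b7: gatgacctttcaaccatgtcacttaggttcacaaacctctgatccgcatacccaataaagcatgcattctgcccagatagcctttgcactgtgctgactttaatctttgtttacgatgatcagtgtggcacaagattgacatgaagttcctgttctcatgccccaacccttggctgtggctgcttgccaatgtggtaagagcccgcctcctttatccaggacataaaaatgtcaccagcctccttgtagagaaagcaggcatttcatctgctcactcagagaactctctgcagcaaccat
Agt: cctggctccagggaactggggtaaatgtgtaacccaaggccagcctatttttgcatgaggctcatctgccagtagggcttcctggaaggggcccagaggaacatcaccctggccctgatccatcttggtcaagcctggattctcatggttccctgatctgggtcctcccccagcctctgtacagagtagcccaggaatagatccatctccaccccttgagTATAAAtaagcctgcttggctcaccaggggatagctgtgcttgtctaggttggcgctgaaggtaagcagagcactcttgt
TATAAA began 29 bases before the start site in Ren1 and 30 bases before it in Agt, and these letters were not in the Akr1b7 window. They occurred on either strand in 13.6% of the 32851 promoters of the same length. The core of the cAMP response element, TGACG, and the core bound by RBP-J, TGGGAA, were in none of the 3 windows, against 20.8% and 25.6% of all promoters. Both strands were searched, and since only TATAAA was found no motif overlapped another. A promoter was found for 8 of the 9 genes, with none for Agtr1a. Among those not shown, TATAAA or its reverse complement was in Ace, Agtr1b and Enpep, and TGACG in Atp6ap2.

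Expression is given as FPKM, the number of fragments scaled to transcript length and to the size of the library, so that levels can be set beside each other between genes. The 44 samples had FPKM sums of 586929–884982, and mitochondrial genes took 58.7–75.6% of the sum in PT cells and 20.2–45.8% in the other populations. The table holds no counts, so that absolute depth is unknown; relative depth, read from the steps between low values, spanned 0.595–1.613. The 6 markers of each population summed to at least 484 FPKM in its own samples, the lowest being PT cells after UUO, and to at most 128 FPKM in the other populations. Stromal cells also differed between surgeries in the genes of other cell types. The summed level of 6 stromal markers was 870–2238 FPKM in stromal sham, 6003–10038 in UUO and 4947–6112 in rUUO samples, whereas 5 distal tubule and collecting duct markers summed to 188–323, 5.13–10.3 and 4.81–17.1 FPKM. Stromal sham replicate 3 stood apart, with the highest sum of stromal markers (2238 FPKM) and the lowest sum of smooth muscle and mural markers (250.2 FPKM) among the 4 sham samples, and the stromal changes of members that passed are given with and without it. The levels in sham and the lists of further genes include it. Macrophage UUO replicate 2 also stood apart, with a macrophage marker sum of 3847 FPKM against 6167–6676 in the other 3.

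In sham kidneys the mean FPKM of every member but Atp6ap2 was highest in stromal cells. These means keep mitochondrial transcripts in the total, at 68.9–75.6% in PT sham and 34–45.8% in stromal sham samples. Such transcripts push PT values down relative to stromal ones. Stromal and PT means were 2.33 and 1.73 FPKM for Agt, and 22 and 14.4 FPKM for Enpep. Which population leads for Agt and Enpep without mitochondrial transcripts is not shown by these means. Stromal cells held 96.3% of the summed population means of Ren1, 93% of Agtr1a and 90.8% of Akr1b7. Neighbours in the order of levels were compared by limma on log2(FPKM + 1) over all genes, p-values being adjusted after Benjamini and Hochberg and called below 0.05. Of 24 neighbouring pairs, 11 passed. The shares of all genes given below cover every gene of a contrast, also where the populations were not neighbours for that gene. Counts of members and these shares are therefore not like for like. Stromal and endothelial cells, which were neighbours for 7 genes, differed for 4 of them, against 24.2% of all genes. Endothelial and PT cells differed for 2 of 6 genes (62.3% of all genes), PT cells and macrophages for 3 of 6 (64.9%), and endothelial cells and macrophages for 2 of 3 (45.7%). Stromal and PT cells were neighbours for Agt (adjusted p = 0.486) and Atp6ap2 (adjusted p = 0.124), in a contrast that 67.6% of all genes passed.

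**Figure D1:**
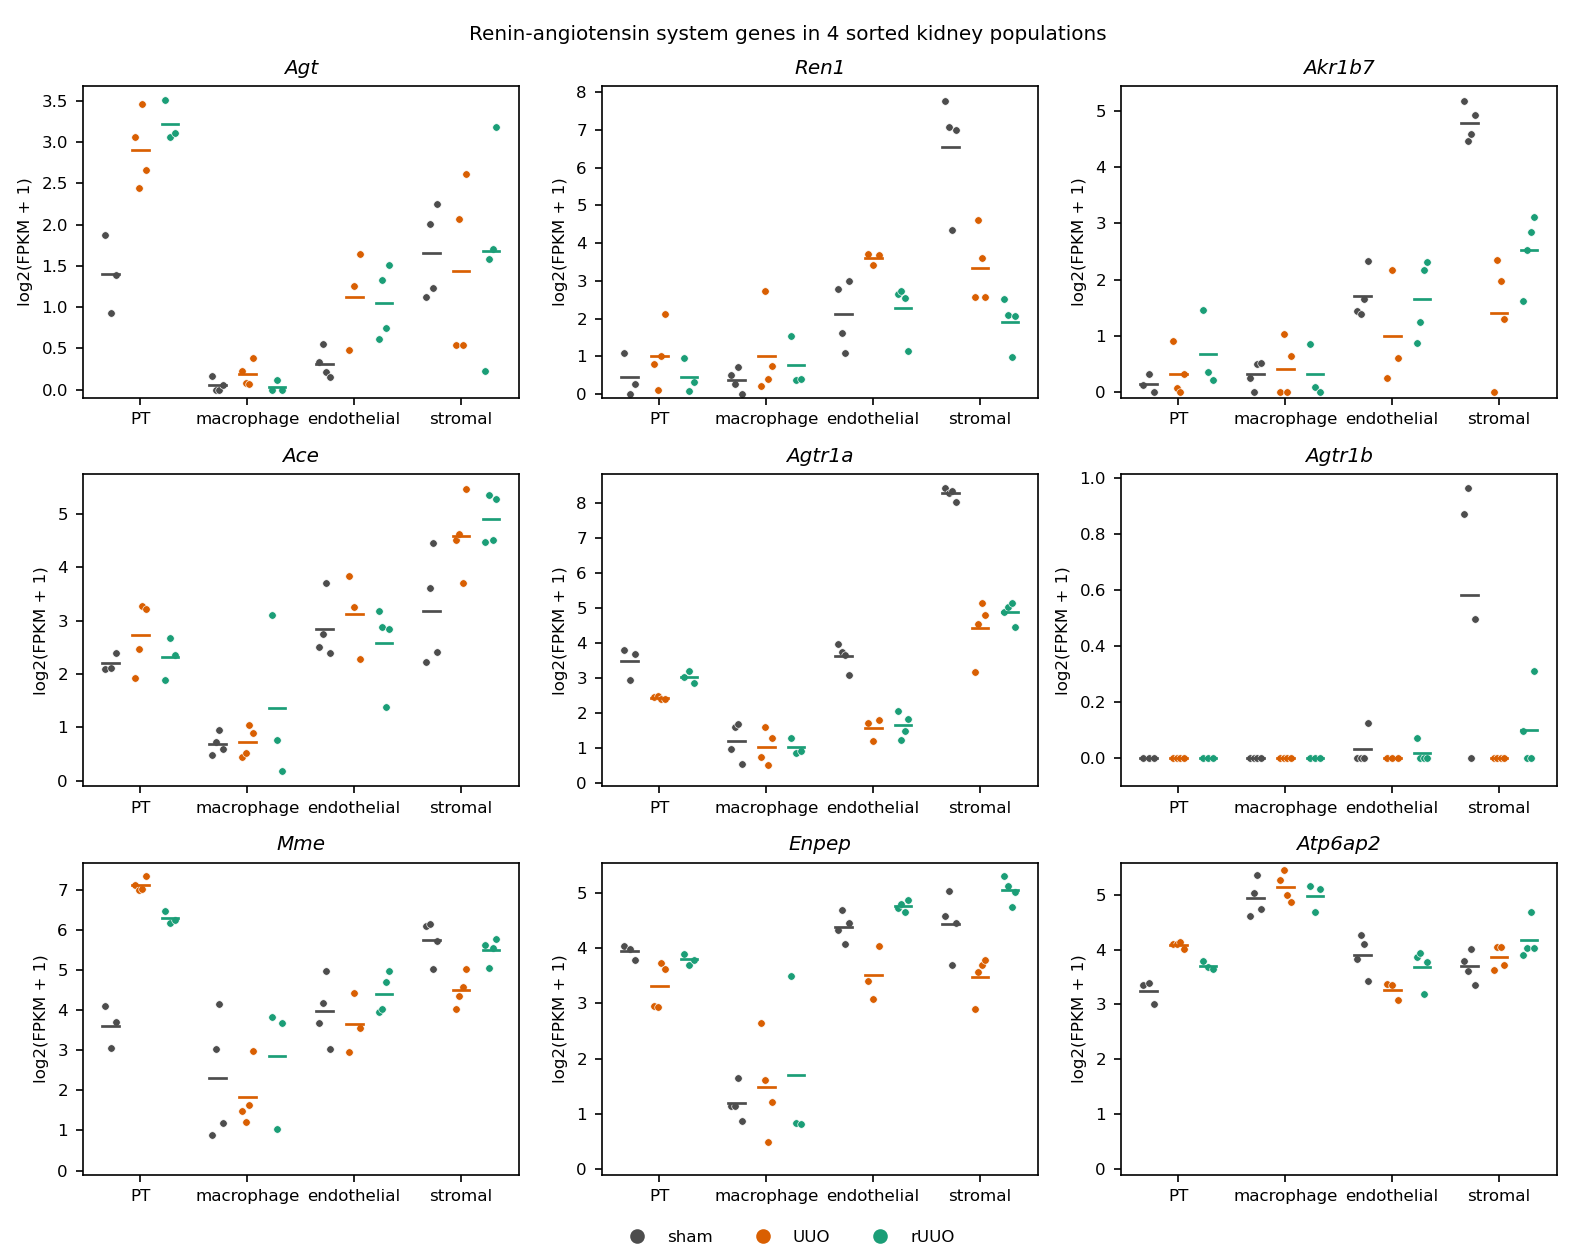
Level of each of the 9 genes on the log2(FPKM + 1) scale in every sample, by population and surgery (grey sham, orange UUO, green rUUO; points are samples and lines are group means). Akr1b7 and Agtr1a stand highest in the 4 stromal sham samples, as does Ren1 in all of them but replicate 3, and Mme in the 4 PT UUO samples. Atp6ap2 has its highest values in macrophages, although stromal rUUO replicate 4 (24.72 FPKM) lies above the lowest macrophage sample (23.58 FPKM).

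The surgeries were compared within each population by limma on all of its samples, taking the genes whose mean there reached 1 FPKM. This filter kept 6 members in PT cells, 5 in macrophages, 7 in endothelial cells and 8 in stromal cells, or 26 gene-and-population pairs. Ace was kept in macrophages only through rUUO replicate 1. Between UUO and sham, 11 of the 26 pairs passed. In stromal cells 1 member rose and 5 fell (26.4% of all genes passed), in PT cells 3 rose and 1 fell (32.8%), and in endothelial cells 1 fell (1.98%). No member passed in macrophages by limma (4.99% of all genes did), also not at an unadjusted p below 0.05. The median log2 change of the members was -1.10 in stromal cells, where that of all genes was -0.07, 0.68 in PT cells (0.51 for all genes), -0.64 in endothelial cells (0.03) and 0.04 in macrophages (-0.03).

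Between rUUO and UUO only Enpep in stromal cells passed, among 8 members tested there (4.17% of all genes). None of the members passed by limma in PT cells (3.83% of all genes), endothelial cells (0.0597%) or macrophages (0%), with 2, 2 and 0 of them at an unadjusted p below 0.05. In macrophages 945 genes of the 13332 tested had such an unadjusted p. Between rUUO and sham, 7 pairs passed: 1 member rose and 3 fell in stromal cells (17.2% of all genes), 2 rose in PT cells (7.46%), 1 fell in endothelial cells (1.77%) and none passed by limma in macrophages (3.44%), also not at an unadjusted p below 0.05. Without stromal sham replicate 3 the stromal counts for UUO and for rUUO against sham were the same 6 and 4 genes, and Mme joined Enpep between rUUO and UUO.

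**Figure D2:**
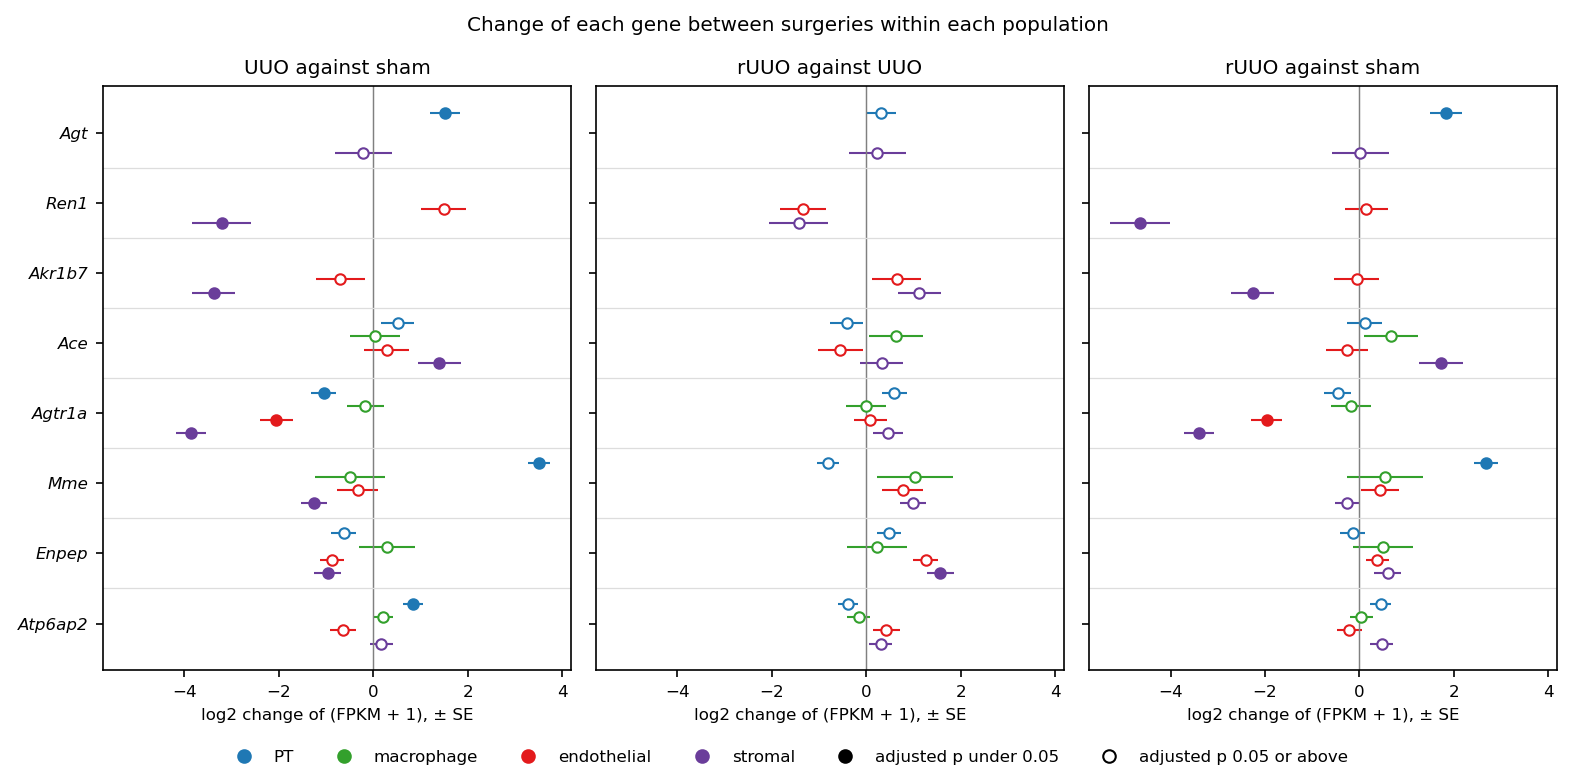
Log2 change of (FPKM + 1) ± SE from limma for 8 genes in each population between surgeries; filled points passed an adjusted p of 0.05, and genes below a mean of 1 FPKM in a population are not drawn. In the left panel stromal Ren1, Akr1b7 and Agtr1a lie at -3.21, -3.38 and -3.86, and PT Mme lies at 3.50.

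Ren1 (chr1:133350510-133360325, plus strand, GRCm38) was a stromal transcript in sham kidneys and was far lower there after UUO. In stromal cells its level was 218, 135, 19.4 and 128 FPKM after sham surgery, 4.94, 23.5, 11.25 and 4.98 FPKM after UUO, and 4.69, 3.24, 0.96 and 3.23 FPKM after rUUO. Sham replicate 3 lay within the UUO range, whereas every rUUO sample lay below every UUO sample. The mean was 11.2-fold lower in UUO than in sham, with a log2 change of -3.21 ± 0.63 (SE, adjusted p = 0.00127 by limma), and 41.3-fold lower in rUUO (-4.65 ± 0.63, adjusted p = 8.61e-05). Leaving out sham replicate 3 gave -3.95 and -5.38, with adjusted p = 2.83e-05 and 3.19e-06. The step from UUO to rUUO did not pass (-1.43 ± 0.63, adjusted p = 0.218). In bulk samples, fewer cells of a type and less RNA per cell cannot be told apart, and this holds for every change given here.

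Endothelial cells were the next population for Ren1, with 5.90, 2.05, 1.13 and 7.02 FPKM in sham, 12.1, 9.81 and 11.9 FPKM in UUO and 5.33, 5.61, 4.80 and 1.22 FPKM in rUUO. All 3 UUO samples were above all sham and rUUO samples. The change of 1.49 ± 0.49 in UUO against sham was not past the threshold (adjusted p = 0.153 by limma; exact permutation p = 0.0571, the smallest possible for 3 against 4). In sham kidneys the stromal level was 4.43 ± 0.58 above the endothelial level on the log2 scale (adjusted p = 1.36e-05), and the endothelial level was 1.67 ± 0.63 above that of PT cells (adjusted p = 0.0292). PT cells (0–3.35 FPKM) and macrophages (0–5.70 FPKM) stayed below the filter, and their sham levels did not differ beyond their spread (adjusted p = 0.928). The highest macrophage value, 5.70 FPKM, belonged to UUO replicate 2.

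Akr1b7 (chr6:34412334-34423142, plus strand) had the same order of populations at its top. The stromal level was 35.3, 21.2, 22.95 and 29.3 FPKM in sham, in UUO samples 0, 4.08, 2.93 and 1.47 FPKM, and rUUO samples 2.08, 4.76, 6.15 and 7.68 FPKM. Neither UUO nor rUUO overlapped with sham, and sham replicate 3, low for Ren1, was within the sham range for Akr1b7. The log2 change was -3.38 ± 0.45 in UUO (adjusted p = 4.49e-05) and -2.26 ± 0.45 in rUUO (adjusted p = 0.0023) against sham, and 1.12 ± 0.45 between rUUO and UUO (adjusted p = 0.181). Without sham replicate 3 the changes from sham were -3.45 (adjusted p = 0.000167) and -2.33 (adjusted p = 0.00537). With a pseudocount of 0.1 the rUUO change lost its call (adjusted p = 0.0626; 6.4e-05 to 0.0626 over the 21 alternatives). Endothelial cells had 0.19–4.02 FPKM over all surgeries, and PT cells and macrophages at most 1.74 FPKM. The stromal sham level exceeded the endothelial by 3.08 ± 0.26 (adjusted p = 8.34e-08) and the endothelial exceeded that of macrophages by 1.38 ± 0.26 (adjusted p = 0.000352). Its close relatives could share reads with it: Akr1b8, chosen after its values were seen, had 11.3 ± 7.53 FPKM in stromal sham, 50.3 ± 5.67 in UUO and 50.5 ± 8.37 in rUUO (SD, n = 4), against 27.2 ± 6.44, 2.12 ± 1.77 and 5.17 ± 2.38 FPKM for Akr1b7. Akr1b3 had stromal means of 42.3, 70.2 and 64.04 FPKM and Akr1b10 of 9.61, 6.22 and 11.1 FPKM.

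Markers of other cells in the stromal samples moved in both directions beside Ren1 and Akr1b7. The 6 smooth muscle and mural markers summed to 250.2–873 FPKM in sham, 516–1189 in UUO and 522–667 in rUUO samples, and against sham 3 rose and 1 fell in UUO, and 1 rose and 2 fell in rUUO. Gja5, a connexin gene whose cell of origin here was not tested, fell from 266–368 FPKM in sham, replicate 3 included, to 0.57–5.15 in UUO and 1.16–7.44 in rUUO samples. The 5 podocyte markers summed to 167–278, 57.3–118 and 108–157 FPKM, and 4 of them fell in UUO. Of 3 genes of mesangial cells chosen after their values were seen, Itga8 and Gata3 had means of 293 and 108 FPKM in stromal sham, 11.1 and 0.993 in UUO, and 16.7 and 1.97 in rUUO, whereas Serpine2 had 523, 351 and 594 FPKM. Pdgfrb, the gene of the sort marker and 1 of the 6 stromal markers, had 212 ± 43.5, 117 ± 38.9 and 129 ± 9.03 FPKM (SD, n = 4). It fell against sham in UUO (-0.88 ± 0.21, adjusted p = 0.00502 by limma) and in rUUO (-0.70 ± 0.21, adjusted p = 0.0291), while the other 5 stromal markers rose. The part of this change in markers in the stromal results was not tested.

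**Figure D3:**
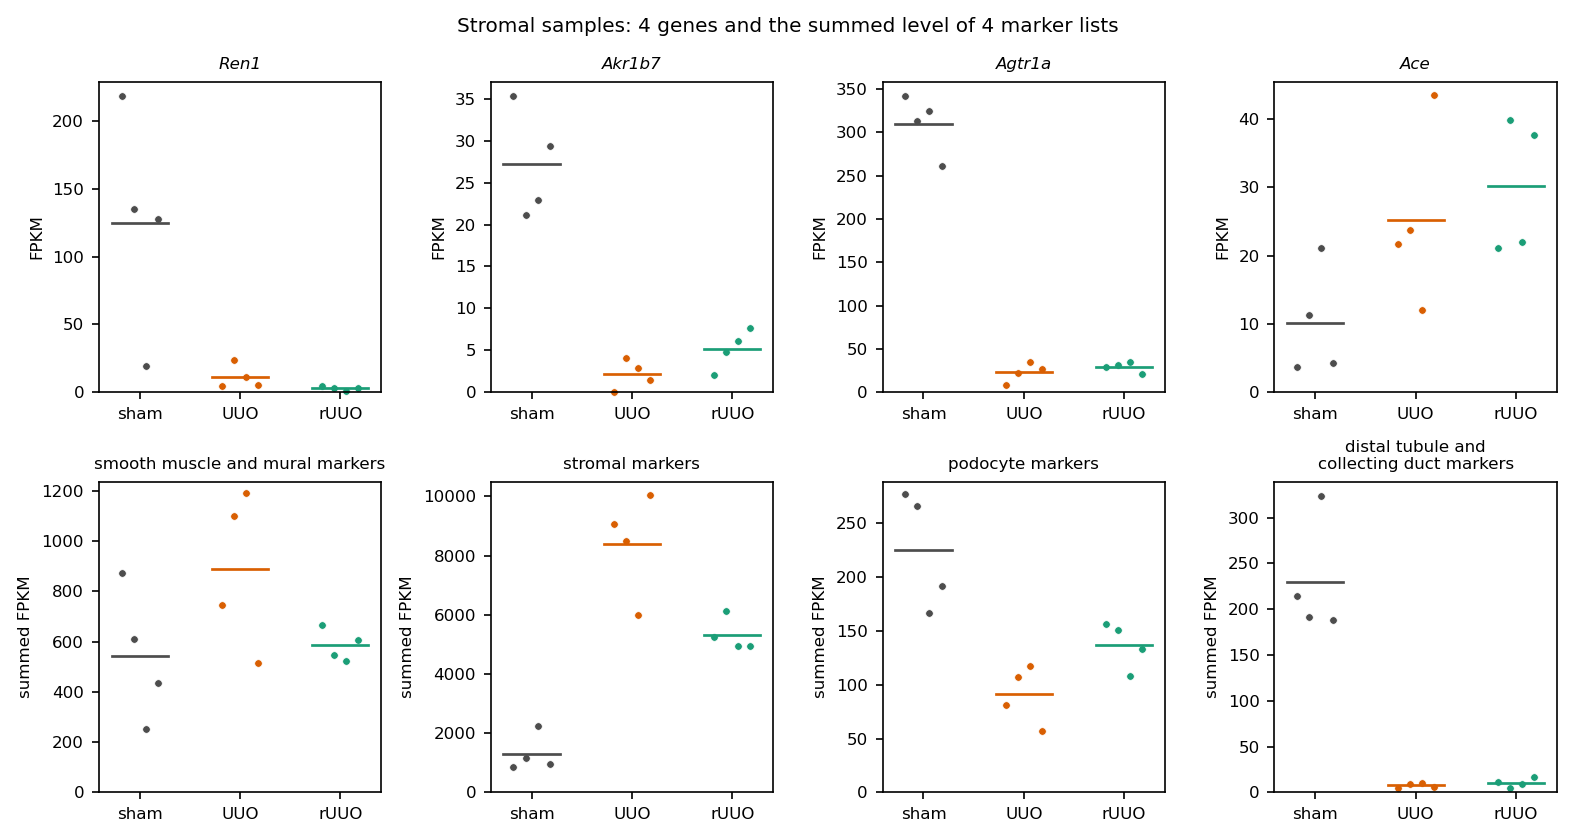
FPKM of Ren1, Akr1b7, Agtr1a and Ace (top) and the summed FPKM of 4 marker lists (bottom) in the 4 stromal samples of each surgery; points are samples and lines are means. Ren1, Akr1b7 and Agtr1a fall from sham to UUO while the sum of the stromal markers rises, although Pdgfrb among them falls. The sum of the distal tubule and collecting duct markers falls from 188–323 to 5.13–10.3.

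Agt (chr8:124556534-124569706, minus strand) was low in the kidney populations and rose in PT cells. PT sham samples had 2.66, 0.91 and 1.63 FPKM, UUO samples 7.38, 4.45, 10.1 and 5.34 FPKM, and rUUO samples 10.4, 7.33 and 7.66 FPKM. Sham overlapped with neither of the other groups, and UUO and rUUO overlapped. The mean was 3.93-fold higher in UUO (log2 change 1.51 ± 0.32, adjusted p = 0.00271) and 4.88-fold higher in rUUO (1.83 ± 0.34, adjusted p = 0.00352) than in sham. The median of all genes in PT cells moved by 0.51 between sham and UUO, so that Agt rose by 1.01 relative to it, and by 0.89 after quantile normalization (adjusted p = 0.0445; 0.00204 to 0.0445 over the 19 alternatives).

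Stromal cells had Agt at 1.17–3.77 FPKM in sham, 0.45–5.14 in UUO and 0.17–8.10 in rUUO samples, with no change past the threshold (adjusted p = 0.83 for UUO against sham). The stromal and PT levels in sham did not differ beyond their spread, and PT cells were 1.09 ± 0.31 above endothelial cells (adjusted p = 0.00626). Endothelial samples reached 0.47 FPKM in sham and 2.12 FPKM in UUO but were below the filter, and macrophages never passed 0.30 FPKM. The UUO change in PT cells exceeded that in stromal cells by 1.72 ± 0.61 (adjusted p = 0.0289, and 0.236 after quantile normalization).

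Ace (chr11:105967945-105989964, plus strand) rose in stromal cells. Sham samples had 3.67, 11.3, 21.04 and 4.33 FPKM, UUO samples 21.7, 23.8, 12.04 and 43.5 FPKM, and rUUO samples 21.2, 39.9, 21.9 and 37.6 FPKM. The highest sham value was that of replicate 3, which overlapped with UUO but not with rUUO. The log2 change was 1.40 ± 0.46 in UUO (adjusted p = 0.0345) and 1.72 ± 0.46 in rUUO (adjusted p = 0.0161). Without sham replicate 1 the adjusted p was 0.114 for UUO and 0.0593 for rUUO, without sham replicate 4 it was 0.108 and 0.0602, without UUO replicates 1, 2 and 4 that for UUO was 0.0587, 0.0662 and 0.106, and without rUUO replicate 2 that for rUUO was 0.0511. Without the filter on low genes it was 0.104 and 0.0654. Without sham replicate 3 both were called, at 1.83 and 2.15.

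Endothelial cells had Ace at 3.87–13.3 FPKM in UUO and 4.26–12.03 FPKM in sham, and PT cells at 2.78–8.71 and 3.30–4.26 FPKM, and neither change passed (adjusted p = 0.86 and 0.264). Macrophages had at most 1.07 FPKM in sham and UUO, and 7.62, 0.71 and 0.14 FPKM in rUUO. The 7.62 FPKM belonged to rUUO replicate 1, without which Ace was below the filter in macrophages. The podocyte markers summed to 73.6 FPKM in that sample, against 12 and 24.7 FPKM in the other rUUO macrophage samples. The part of other cells in this value was not tested. In sham, stromal, endothelial and PT cells could not be separated from their neighbours (adjusted p = 0.621 and 0.225), and PT cells were 1.51 ± 0.45 above macrophages (adjusted p = 0.00688).

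Agtr1a (chr13:30336441-30382867, plus strand) was the member with the highest level in any population. In stromal cells sham gave 342, 313, 325 and 261 FPKM, UUO 8.05, 22.2, 34.4 and 26.9 FPKM, and rUUO 28.6, 31.7, 34.5 and 20.7 FPKM. Sham lay far above UUO and rUUO, which overlapped. The mean was 13.5-fold lower in UUO (-3.86 ± 0.32, adjusted p = 6.07e-07) and 10.7-fold lower in rUUO (-3.40 ± 0.32, adjusted p = 3.39e-06), and the step from UUO to rUUO was 0.46 ± 0.32 (adjusted p = 0.454). Without sham replicate 3 the changes from sham were -3.83 and -3.37.

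The receptor gene also fell in endothelial and PT cells. Endothelial samples had 14.6, 12.5, 11.5 and 7.47 FPKM in sham, 2.25, 1.3 and 2.45 FPKM in UUO and 3.17, 1.34, 1.81 and 2.52 FPKM in rUUO. Both later groups lay below all sham samples, with changes of -2.05 ± 0.35 (adjusted p = 0.00483) and -1.96 ± 0.32 (adjusted p = 0.00408). Pdgfrb, the stromal sort marker, had 4.47 ± 1.73 FPKM (SD, n = 4) in endothelial sham, 2.52 ± 1.82 (n = 3) in UUO and 4.95 ± 1.38 (n = 4) in rUUO, and markers of other cells also moved in these samples. In endothelial sham, UUO and rUUO samples the thick ascending limb markers summed to 143–685, 51.5–179 and 61.9–205 FPKM, the distal tubule and collecting duct markers to 57–276, 20.5–85.5 and 11.4–38.7 FPKM, and the podocyte markers to 292–627, 318–330 and 436–487 FPKM, with 1 marker of each list falling in UUO. Their part in the fall of Agtr1a was not tested. PT samples had 13, 6.71 and 11.9 FPKM in sham, 4.51, 4.61, 4.21 and 4.26 FPKM in UUO and 7.06, 8.24 and 6.19 FPKM in rUUO. The PT change was -1.05 ± 0.26 in UUO (adjusted p = 0.00798), or -1.56 relative to the median of all genes, whereas rUUO differed from neither sham (adjusted p = 0.372) nor UUO (adjusted p = 0.213) past the threshold. Macrophages had 0.42–2.22 FPKM over all surgeries. In sham, the stromal level was 4.66 ± 0.28 above the endothelial (adjusted p = 1.01e-09), endothelial and PT levels could not be separated (adjusted p = 0.728), and PT cells were 2.29 ± 0.30 above macrophages (adjusted p = 3.68e-06).

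Agtr1b (chr3:20314473-20367177, minus strand) was nowhere above 0.95 FPKM and was not tested. Stromal sham samples had 0.83, 0.95, 0 and 0.41 FPKM, all 4 stromal UUO samples were listed at 0, and rUUO samples had 0.07, 0, 0 and 0.24 FPKM. Every PT and macrophage sample was listed at 0. Because both receptor genes encode close copies, reads could be split between them.

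Mme (chr3:63241537-63386030, plus strand), the neprilysin gene of the proximal tubule brush border and of podocytes, rose in PT cells and fell in stromal cells. PT sham samples had 16.2, 7.28 and 11.9 FPKM, UUO samples 137, 126, 129 and 162 FPKM, and rUUO samples 87.7, 71.3 and 74.6 FPKM. The 3 groups did not overlap, with rUUO between the others. The mean was 11.7-fold higher in UUO (3.50 ± 0.23, adjusted p = 1.05e-07) and 6.61-fold higher in rUUO (2.68 ± 0.25, adjusted p = 8.55e-06) than in sham. The step from UUO to rUUO was -0.82 ± 0.23 (adjusted p = 0.0677; 0.031 to 0.414 over the 19 alternatives). Relative to the median of all genes the UUO change was 3.00. The 6 PT markers summed to 1824–2457 FPKM in sham, 484–672 in UUO and 1125–1381 in rUUO samples, with all 6 falling in UUO. The 4 thick ascending limb markers summed to 20.8–24.4, 144–186 and 48.1–137 FPKM, with 2 rising in UUO. Most of this sum was Umod, with means of 17.4, 147 and 72.9 FPKM, and Slc12a1 and Kcnj1 were not called in UUO. The smooth muscle and mural markers summed to 3.32–5.39, 18.2–32.6 and 24.1–40.3 FPKM in PT cells, with all 4 tested rising in UUO and 3 in rUUO, and the distal tubule and collecting duct markers to 22–27.5, 28.2–84.8 and 26.6–41.7 FPKM, with 2 of 4 tested rising in UUO. Of all 11416 genes tested in PT cells, 3186 rose in UUO and 744 in rUUO against sham. The part of these marker lists in the PT results was not tested.

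Stromal Mme was 67.5, 70.1, 31.7 and 51.4 FPKM in sham, 15.4, 19.5, 22.95 and 31.6 FPKM in UUO and 48.4, 32.02, 45.8 and 53.4 FPKM in rUUO. UUO lay just below the lowest sham sample, replicate 3. The change was -1.25 ± 0.27 in UUO (adjusted p = 0.00301, 0.064 in a fit over all populations) and -1.49 without sham replicate 3 (adjusted p = 6e-04), and rUUO did not differ from sham past the threshold (-0.25 ± 0.27, adjusted p = 0.605). The rise from UUO to rUUO was 1.00 ± 0.27 (adjusted p = 0.0524), and 0.03 without sham replicate 3 or 0.0349 without UUO replicate 4. Endothelial samples had 6.70–30.6 FPKM and macrophages 0.85–16.7 FPKM over all surgeries, and no change of either passed the test. In sham, stromal cells were 1.78 ± 0.58 above endothelial cells (adjusted p = 0.0319), and endothelial cells, PT cells and macrophages did not separate from their neighbours (adjusted p = 0.644 and 0.0775).

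Enpep (chr3:129269175-129332720, minus strand), which encodes the aminopeptidase that removes the first residue of angiotensin II, fell in UUO and rose in rUUO in stromal cells. Sham samples had 23.1, 31.9, 12 and 20.98 FPKM, UUO samples 6.42, 10.9, 11.99 and 12.8 FPKM, and rUUO samples 38.6, 34.1, 25.9 and 31.2 FPKM. All rUUO samples lay above all UUO samples, and sham replicate 3 lay within the UUO range. The change was -0.96 ± 0.28 in UUO against sham (adjusted p = 0.0198), 1.56 ± 0.28 in rUUO against UUO (adjusted p = 0.00785) and 0.60 ± 0.28 in rUUO against sham (adjusted p = 0.175). The call for UUO against sham was lost without sham replicate 1 (adjusted p = 0.054), sham replicate 2 (0.0763) or UUO replicate 1 (0.0599), and without sham replicate 3 the change was -1.21.

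Endothelial Enpep had 19.2, 24.8, 15.9 and 20.96 FPKM in sham, 9.62, 7.51 and 15.5 FPKM in UUO and 25.7, 26.98, 24.3 and 28.3 FPKM in rUUO. UUO lay below both other groups in every sample, yet the changes of -0.88 ± 0.26 against sham and 1.26 ± 0.26 up to rUUO were not past the threshold over all genes (adjusted p = 0.111 and 0.0958). Without UUO replicate 4, the highest of the 3 UUO samples, both were past it (adjusted p = 0.033 and 0.0384). In PT cells, sham had 12.9–15.4 FPKM, UUO 6.63–12.3 and rUUO 11.95–13.97. The PT change in UUO was -0.63 ± 0.26 (adjusted p = 0.0727), which passed after quantile normalization (-1.09, adjusted p = 0.00258) and in values scaled without mitochondrial genes (-0.91, adjusted p = 0.0134), with 0.00258 to 0.248 over the 19 alternatives. Macrophages had 0.41–10.2 FPKM, the highest value being that of rUUO replicate 1. In sham, the 3 other populations did not separate from their neighbours (adjusted p = 0.918 and 0.177), and PT cells were 2.74 ± 0.28 above macrophages (adjusted p = 2.35e-07).

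**Figure D4:**
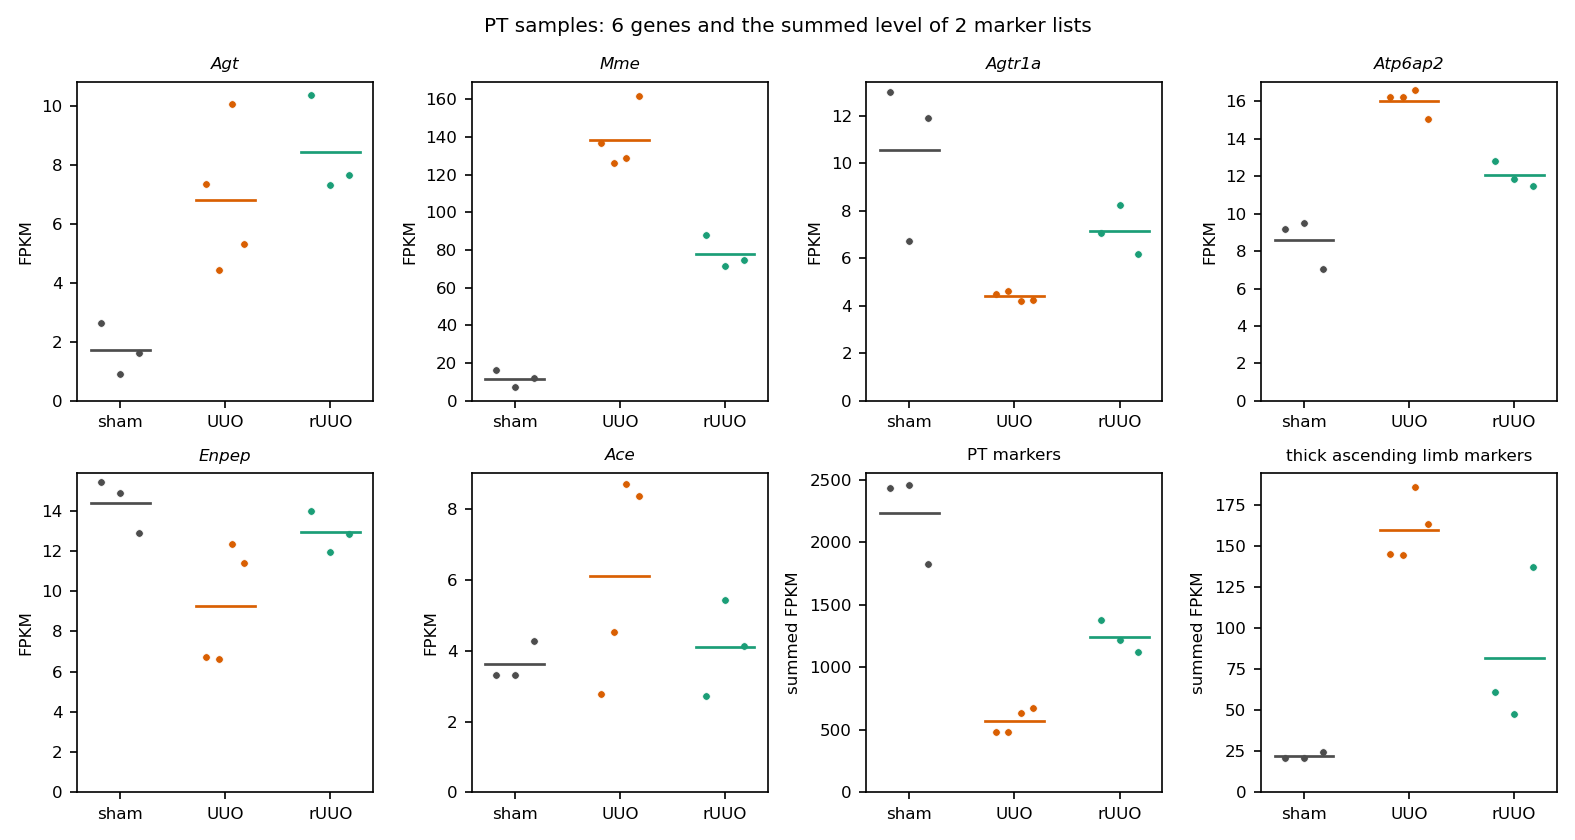
FPKM of Agt, Mme, Agtr1a, Atp6ap2, Enpep and Ace and the summed FPKM of PT and thick ascending limb markers in the 3 sham, 4 UUO and 3 rUUO PT samples; points are samples and lines are means. Mme rises from 7.28–16.2 to 126–162 while the PT markers fall from 1824–2457 to 484–672.

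Atp6ap2 (chrX:12587801-12617049, plus strand) was the member that macrophages expressed most. Macrophages had 23.6–40.1 FPKM in sham, 28.1–43.01 in UUO and 24.6–34.8 in rUUO samples, and these ranges overlapped. Their sham level was 1.03 ± 0.23 above that of endothelial cells (adjusted p = 0.00134), and endothelial and stromal cells (adjusted p = 0.571) and stromal and PT cells did not separate. PT samples had 9.21, 9.48 and 7.07 FPKM in sham, 16.3, 16.3, 16.6 and 15.1 FPKM in UUO and 12.8, 11.9 and 11.5 FPKM in rUUO. The 3 PT groups did not overlap, and the change in UUO was 0.84 ± 0.21 (adjusted p = 0.00801). Relative to the median of all genes it was 0.33, and after quantile normalization it was 0.36 and no longer called (adjusted p = 0.208; 0.00371 to 0.208 over the 19 alternatives). Endothelial samples had 9.80–18.2 FPKM in sham and 7.42–9.41 FPKM in UUO (-0.64 ± 0.28, adjusted p = 0.34). Stromal samples had 9.23–15.2, 11.4–15.6 and 14.04–24.7 FPKM over sham, UUO and rUUO, with no call.

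Whether a change differed between populations was tested as a contrast of changes in a single limma fit over all 44 samples, where a member's mean reached 1 FPKM in both populations. Populations of a surgery may share mice, which this fit did not use. For UUO against sham, 11 of 33 gene-and-pair contrasts passed. The background was 15.5% of all genes for PT cells against macrophages, 11.1% for PT against endothelial cells, 29.2% for PT against stromal cells, 2.31% for macrophages against endothelial cells, 16.2% for macrophages against stromal cells and 13.1% for endothelial against stromal cells. The rise of Mme in PT cells exceeded its change in stromal cells by 4.75 ± 0.77 (adjusted p = 7.05e-06), in macrophages by 3.99 ± 0.77 (adjusted p = 0.000242) and in endothelial cells by 3.83 ± 0.80 (adjusted p = 0.000768). The change of Ren1 in endothelial cells, which had not passed by itself, exceeded that in stromal cells by 4.70 ± 0.85 (adjusted p = 0.000103).

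The fall of Agtr1a was deeper in stromal cells than in macrophages by 3.69 ± 0.43 (adjusted p = 4.07e-08), than in PT cells by 2.81 ± 0.45 (adjusted p = 5.23e-06) and than in endothelial cells by 1.81 ± 0.45 (adjusted p = 0.0043). It was also deeper in endothelial cells than in macrophages (1.88 ± 0.45, adjusted p = 0.0132). Akr1b7 fell more in stromal than in endothelial cells by 2.68 ± 0.61 (adjusted p = 0.00205), and Atp6ap2 moved up in PT cells relative to endothelial cells by 1.48 ± 0.32 (adjusted p = 0.001). For rUUO against UUO none of 33 contrasts passed by limma, with 5 at an unadjusted p below 0.05. There the background over all genes was 0.781% for PT cells against macrophages, 2.09% for PT against endothelial, 7.43% for PT against stromal, 0.154% for macrophages against endothelial, 1.17% for macrophages against stromal and 0.963% for endothelial against stromal cells.

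Further RAS genes were read from a list of 20. In stromal cells 14 were tested between UUO and sham, of which 5 rose and 1 fell, where 26.4% of all genes passed. Agtr2, the gene of the type 2 angiotensin receptor, had 0–0.08 FPKM in stromal sham, 1.07–13.5 in UUO and 0.08–0.31 in rUUO samples. Both steps were called by limma (2.38 ± 0.49, adjusted p = 0.0019, and -2.17 ± 0.49, adjusted p = 0.0231). Agtr2 was past the filter only through the UUO samples, with means of 0.03, 5.91 and 0.19 FPKM in sham, UUO and rUUO. Its calls, also that among the 5, thus depend on the group that let it be tested. Anpep, aminopeptidase N, rose by 1.64 ± 0.21 (adjusted p = 2.88e-05) and Prcp, a carboxypeptidase that cleaves angiotensin II, by 1.44 ± 0.21 (adjusted p = 8.67e-05). Klk1, tissue kallikrein of the distal nephron, fell from 314–739 to 12.4–25.2 FPKM (-4.73 ± 0.28, adjusted p = 3.74e-08), beside the fall in the distal tubule and collecting duct markers. Between rUUO and sham 4 rose and 1 fell, where 17.2% of all genes passed, among them Agtrap, a gene of a receptor-binding protein, which rose by 0.96 ± 0.19 (adjusted p = 0.00194).

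In PT cells 13 of the 20 were tested between UUO and sham, and 4 rose and 1 fell, a share near the 32.8% of all genes that passed. Atp6ap1, another accessory subunit gene of the proton pump, rose from 33.1–41.8 to 111–125 FPKM in UUO (1.61 ± 0.17, adjusted p = 1.11e-05) and fell back to 58.4–73.4 FPKM in rUUO (-0.84 ± 0.17, adjusted p = 0.0215). Rnpep and Dpp3, a pair of peptidase genes, rose by 1.302 ± 0.37 (adjusted p = 0.0163) and 1.13 ± 0.27 (adjusted p = 0.00644), and Klk1 by 0.81 ± 0.27 (adjusted p = 0.0356). The gene that fell was Anpep (-0.55 ± 0.18, adjusted p = 0.0323). The list's median change was 0.51, and so was that of all genes. In macrophages and endothelial cells Klk1 fell in UUO by 2.57 and 2.62 on the log2 scale (adjusted p = 0.00478 and 0.00397), where the median change of the 5 distal tubule and collecting duct markers was -1.62 and -1.47 with 1 of them called in each. Anpep rose in macrophages by 1.18 ± 0.23 (adjusted p = 0.00933) and Prcp rose in endothelial cells by 1.35 ± 0.32 (adjusted p = 0.039). Of the 12 tested in each of these populations 1 rose and 1 fell, where 4.99% of all genes passed in macrophages and 1.98% in endothelial cells.

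Genes known to act on renin release or transcription were read from a list of 22. Of 20 tested in stromal cells, 10 fell and 1 rose in UUO, where 26.4% of all genes passed, and the list's median change was -1.01 where that of all genes was -0.07. Gja5 fell by 6.59 ± 0.42 on the log2 scale (adjusted p = 4.63e-08). Gja4, another connexin gene, fell by 2.48 ± 0.35 (adjusted p = 8.67e-05), and Ptger4, a prostaglandin E receptor gene through which renin release is raised, by 2.34 ± 0.24 (adjusted p = 3.5e-06), and Ptger2, another prostaglandin E receptor gene, by 2.24 ± 0.33 (adjusted p = 0.000103). Ptgs2, cyclooxygenase-2, rose by 2.14 ± 0.42 (adjusted p = 0.00146), from 0.20–1.44 to 4.10–8.72 FPKM. In rUUO 7 of the 20 were below sham and none above, where 17.2% of all genes passed, and between rUUO and UUO none passed by limma, with 5 at an unadjusted p below 0.05.

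In PT cells 4 of the 12 regulators tested rose and 1 fell in UUO, where 32.8% of all genes passed. Adora1, the adenosine A1 receptor gene, rose by 2.58 ± 0.45 (adjusted p = 0.000706), Casr, the calcium-sensing receptor gene, by 1.95 ± 0.30 (adjusted p = 0.000241), Adcy6 by 1.42 ± 0.24 (adjusted p = 0.000625) and Gnas by 1.24 ± 0.19 (adjusted p = 0.000207). The 1 that fell was Gucy1a3 (-0.96 ± 0.32, adjusted p = 0.0322 by limma). Casr is also a gene of the thick ascending limb, 2 of whose 4 markers rose in the same samples. In macrophages 1 of the 15 regulators tested rose and 1 fell in UUO, where 4.99% of all genes passed. Ptgs2 rose by 2.58 ± 0.32 (adjusted p = 0.000351) and Adrb1, the β1-adrenoceptor gene, fell by 1.71 ± 0.37 (adjusted p = 0.0179). The 4 lymphocyte markers summed to 1.66–2.13 FPKM in macrophage sham and 3.37–46.6 FPKM in UUO samples, with 2 of 3 tested rising. Of 5 PT markers tested in macrophages 4 fell. The part of these markers in the macrophage results was not tested. In endothelial cells none of 15 regulators passed by limma in any comparison, with 4, 3 and 3 at an unadjusted p below 0.05.

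The genes most like each member were ranked by Pearson's r of log2(FPKM + 1) over the 44 samples, among 19301 genes. These samples share populations and surgeries, so r describes the pattern over the 12 groups. For Ren1 they were Mmp17 (r = 0.855), Pgf (0.842), Serpini1 (0.834), Olfr558 (0.827) and Sept4 (0.825). Serpini1, a serine protease inhibitor gene, was also nearest to Akr1b7 (0.933), followed by Daam2 and Ptn, and had means of 49.7 FPKM in stromal sham, 1.80 in UUO and 6.55 in rUUO. For Agtr1a they were Rtn4rl1 (0.923), Arhgef17 (0.922) and Rasl12 (0.915). For Mme they were Ddr1 (0.885), Cxadr (0.873) and Pax8 (0.868), a transcription factor gene of renal epithelium. Those for Agt were Atp11a (0.811), Dsc2 (0.804) and Aldh1l1 (0.795), for Ace Tead1, Fgfr1 and Maged1 (0.875–0.879), for Enpep Trib2, Timp3 and Palm (0.882–0.898), and for Atp6ap2 Ctsc, Prkcd and Ptprj (0.879–0.893).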

How the data were processed

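RNA of LTL+, F4/80+, CD31+ and PDGFRβ+ cells, sorted from mouse kidneys, was amplified and sequenced as paired reads of 150 bases. The authors deposited FPKM per gene (GRCm38/mm10, 2 decimals); the submitters' processing notes name FastQC, Bowtie2, RSEM and DESeq2 without versions or roles. Strand-aware counting is not given in the sources used here, so a gene and an antisense partner may not be told apart. FPKM is relative to each sample's total, so that a few abundant transcripts, here mitochondrial ones, move all other values. Values were read from 44 of 46 columns, since 2 bear an identical sample name and could not be assigned. A PT sham sample in the labels has no column named for it and was not analysed here. A PT sample whose name holds SHAM as well as UUO was taken as UUO, the treatment its label gives.

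Genes whose mean reached 1 FPKM in the samples compared were fitted by limma 3.58.1 (R 4.3.3) on log2(FPKM + 1), with an intensity trend and Benjamini-Hochberg adjustment over all genes tested (threshold 0.05); fold changes on this scale understate those of low genes. The 3 surgeries of a population shared 1 fit. For single members exact permutation tests, two-sided, were run as well (SciPy 1.17.1), which cannot go below 0.0286 for 4 against 4 samples, 0.0571 for 4 against 3 or 0.1 for 3 against 3. Fits were tested on simulated data. The members, lists and tests were chosen with earlier results of these data known. All members are named; of the lists, at most 4 called genes per comparison were named, by size of change, and where 1 gene moved against the others of its list it was named too. Other genes were named after their values were seen, and 1 gene of the list of further RAS genes is not reported here. Counts per gene were not analysed here, so no interval from counts is given. Alternatives comprised TPM, quantile normalization, scaling without mitochondrial genes, a pseudocount of 0.1, no filter on low genes, no trend, a fold above 1.5, a single fit of all populations, a block for the replicate number, and leaving out each replicate. Promoters came from RefSeq (GRCm38.p6).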

Additional observations from a re-analysis of the deposited data

Results flagged for a closer look

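Dixon's test was run on 57 sets of 4 samples, in which chance flags about 1 in 20, and it flagged 2 values. Endothelial rUUO replicate 6 had 1.22 FPKM of Ren1, where the other 3 samples had 4.80–5.61 FPKM. Stromal rUUO replicate 4 had 24.72 FPKM of Atp6ap2, where the others had 14.04–15.4 FPKM.

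The change from sham to UUO differed between populations in 11 of 33 contrasts by the limma test of the difference itself. Of all genes, 2.31% (macrophages against endothelial cells) to 29.2% (PT against stromal cells) passed this test. For Mme the change in PT cells exceeded that in macrophages by 3.99, in endothelial cells by 3.83 and in stromal cells by 4.75 on the log2(FPKM + 1) scale. For Agtr1a the change in PT cells exceeded that in stromal cells by 2.81, that in macrophages exceeded that in endothelial cells by 1.88 and in stromal cells by 3.69, and that in endothelial cells exceeded that in stromal cells by 1.81. For Ren1 and Akr1b7 the change in endothelial cells exceeded that in stromal cells by 4.70 and 2.68. For Agt the change in PT cells exceeded that in stromal cells by 1.72, a difference no longer called after quantile normalization. For Atp6ap2 the change in PT cells exceeded that in endothelial cells by 1.48.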

How the results depend on the processing

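Of 19 calls of a member, 11 held under every alternative and 8 were lost under at least 1; of 385 alternative values 362 stayed past the threshold, 23 did not, and none changed sign. The number of members called was 11 for UUO against sham (9–12 with each replicate left out), 7 for rUUO against sham (6–7) and 1 for rUUO against UUO (1–2). That single call, Enpep in stromal cells, was joined by a second without PT sham replicate 2, endothelial UUO replicate 4, stromal sham replicate 3 or stromal UUO replicate 4. The count of neighbouring sham pairs called was 11 of 24 (9–12 with each replicate left out), and that of changes differing between populations was 11 of 66 (10–13), falling to 7 with a pseudocount of 0.1. Samples with the same replicate number deviated together weakly at most. Between populations of a surgery, r of their deviations from the group mean was -0.07 to 0.19, with 3 of 57 pairs over 0.1. Pairs with different numbers had -0.178 to 0.115, with 1 of 184 over 0.1. Between surgeries of a population, r was -0.06 to 0.12, with 1 of 35 pairs over 0.1, against 0 of 126 for different numbers. These values do not settle whether samples of the same number share a mouse. With the replicate number as a block the counts were 10, 5 and 0 for UUO against sham, rUUO against sham and rUUO against UUO, 12 for neighbouring sham pairs and 11 for differences between populations; the block lost Ace in stromal cells in both comparisons with sham (adjusted p = 0.0596 and 0.0763), Agtr1a in endothelial cells between rUUO and sham (0.0592) and Enpep in stromal cells between rUUO and UUO (0.0748). Quantile normalization took the PT split of all genes in UUO from 3186 higher and 561 lower to 1283 and 1196. Ace in stromal cells in UUO against sham was also lost without mitochondrial genes (adjusted p = 0.0519) and without the trend (0.0537). The fit on all populations lost stromal Mme (adjusted p = 0.064) and Enpep (0.0533) in UUO against sham. Members with a mean below 1 FPKM were not tested, and the table holds no counts from which the depth behind low values could be read.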
